A study of Mus musculus with 4 samples.

Results

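Complement is a cascade of plasma and cell-surface proteins that tags particles and cells for removal and can open pores in membranes. The classical and lectin routes start when recognition proteins activate proteases that cut C4 and C2, the alternative route amplifies the cascade through factor B and properdin, and all routes meet at the cleavage of C3. Most plasma complement is made in the liver, but fibroblasts, endothelial cells and macrophages also make components, and nearly all cells carry inhibitors that protect their own surface. The genes described here are 8 complement components and regulators, C3, C4b, Cfb, Cfp, Serping1, Cd55, C2 and C3ar1, given as a list of symbols. A gene was measured where the platform annotation named it alone for a probe set, the group of array probes read as 1 value. This held for 6 of the 8 genes, with 13 probe sets in all, out of 18193 genes with such a probe set in the whole table. C3 had no single-gene probe set, and C4b was named only together with C4a, on 1 probe set, so no value is given for either.

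The RNA came from mice with flank tumours of 293EBNA cells, a human embryonic kidney line, grown to 2000 mm3. In the Apex group the tumour cells carried an empty APEX vector, and in the VEGFD group they carried that vector with VEGFD inserted, which encodes a growth factor for lymphatic vessels. Both groups carried tumours, and tumour-free mice were not analysed here. The collecting lymphatics that drained the tumour were found with a blue dye and dissected, and endothelial cells were sorted with magnetic beads, each group giving 2 arrays labelled as biological replicates. The labels give no strain, age or sex, and they do not say whether a replicate was 1 mouse or a pool, so the spread between arrays may be partly technical. The question was how endothelium of these vessels differs when the tumour makes VEGF-D. Signals are listed in the order Apex replicates 1 and 2, then VEGFD replicates 1 and 2. They are linear, and the lower limit used for testing a gene was a mean of 5.37 on the log2(signal + 16) scale, or a signal of about 25.3. All 6 measured genes passed it, among 11680 tested genes.

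Of 10 pan-endothelial genes, 10 lay above 25.3 in Apex replicate 2, 5 in each replicate 1 array and 2 in VEGFD replicate 2, so these markers matched the endothelial label mainly on 1 array. Their summed signals were 688, 4150, 1121 and 432, of which Emcn alone gave 48.4, 2670, 106 and 24.0. Pecam1, which encodes the endothelial adhesion protein CD31, read 2.92, 141, 3.25 and 2.22. Prox1, the transcription factor gene of lymphatic identity, was at most 11.6 on its brightest probe set. Of 8 lymphatic endothelial markers with a probe set, 4, 6, 5 and 5 lay above 25.3. Flt4, Foxc2, Itga9 and Pdpn did so on every array, and Reln only in VEGFD. Lyve1 (16.5, 151, 22.0 and 14.5) and Mmrn1 (14.3, 38.9, 16.2 and 23.2) did so only in Apex replicate 2. The sums were 1211, 2290, 1611 and 2191. Pdpn, which encodes podoplanin and is also made by fibroblasts, was the largest part of each sum and read 963 or above on every array. The 10 fibroblast markers summed to 22267, 18931, 21994 and 21439, with Col1a2, a collagen I gene, at 5555 or above on every array. Of 13 macrophage and monocyte markers, 5 lay below 25.3 on all arrays, and the sums were 871, 814, 699 and 827. Ptprc, the pan-leukocyte gene, was at most 13.0. Of 11 other leukocyte markers with a probe set, Ptprc among them, 8 lay below 25.3 on all arrays. Their sums were 595.2, 624.5, 386.2 and 160.1. Most of each Apex sum came from S100a8, the 1 tested gene of these, which read 529, 477, 283 and 71.4. The log2 change of S100a8, VEGFD minus Apex, was -1.68 (adjusted p = 0.825 in limma). All 4 hepatocyte markers stayed below 25.3, with albumin (Alb) at most 17.9. In bulk RNA of this kind, fewer cells of a type and less RNA per cell cannot be told apart.

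**Figure D1:**
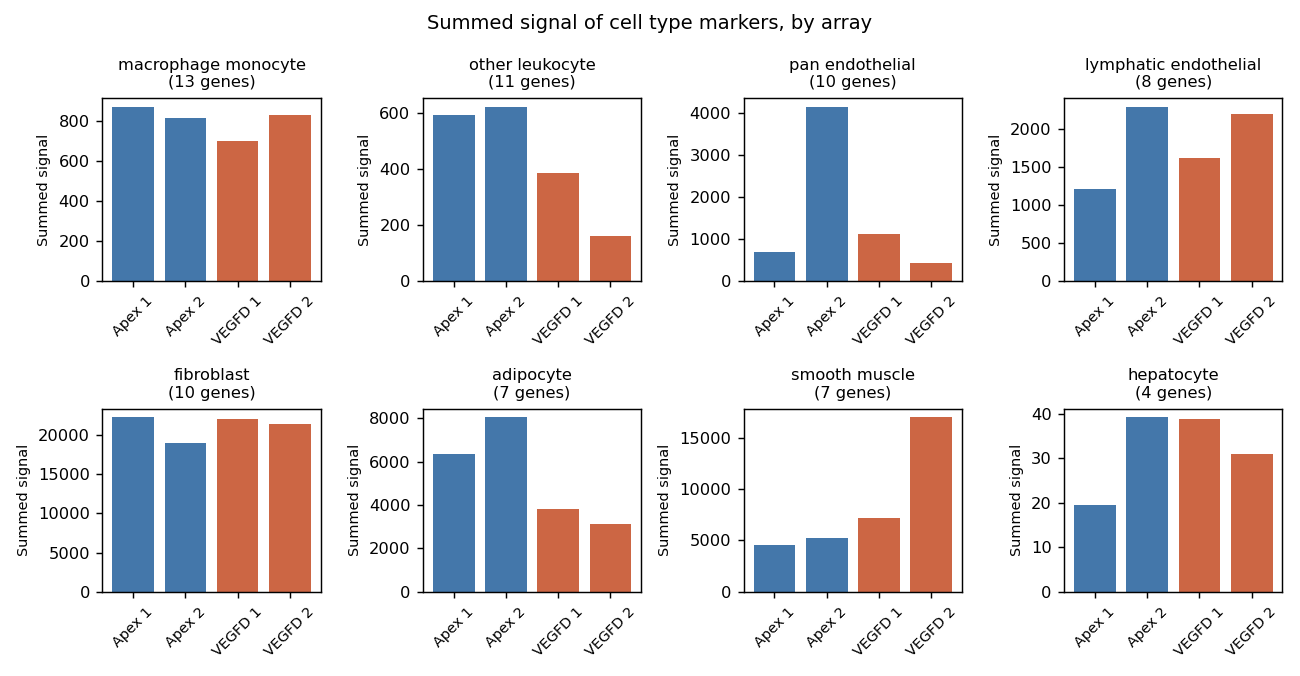
Summed linear signal of the marker genes of 8 cell types (bars, 1 per array; blue Apex, orange VEGFD; every axis starts at 0 and has its own scale). The pan-endothelial sum is 4150 in Apex replicate 2 and between 432 and 1121 on the other arrays, while the fibroblast sum runs from 18931 to 22267.

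Among the 6 genes, Cd55 had the largest difference without overlap between groups, with lower signals in VEGFD on each of its probe sets, and it did not pass the test. C2, Cfb and Serping1 showed another pattern. They had their lowest signal in Apex replicate 2 and several times more in Apex replicate 1, and their groups overlapped. C3ar1 was lowest in 1 VEGFD array and highest in the other, and Cfp was low and nearly flat. The limma test at an adjusted p of 0.05 called none of the 6, where the share of all tested genes that passed was 0%, and the adjusted p values of the 6 ran from 0.825 to 0.980. Over all tested genes 666 had an unadjusted limma p under 0.05 and the smallest adjusted p was 0.110. An exact permutation test of 2 arrays against 2 cannot go below p = 0.333.

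Upstream sequences are shown for the membrane regulator Cd55 and the receptor gene C3ar1, each read by 3 probe sets: those of Cd55 had both VEGFD arrays below both Apex arrays, and those of C3ar1 ranked the 4 arrays in 1 order. RefSeq promoter windows, from 250 bases before to 50 bases after the transcript start on GRCm38.p6, were found for 4 of the 8 genes (C3, Cfp, Cd55 and C3ar1). The Cd55 window is chr1:130462695-130462994 and the C3ar1 window chr6:122856108-122856407, both on the minus strand. Capitals mark matches, on either strand, to GGGCGG (the GC box of the Sp1 family) and TATAAA (the TATA box).
Cd55: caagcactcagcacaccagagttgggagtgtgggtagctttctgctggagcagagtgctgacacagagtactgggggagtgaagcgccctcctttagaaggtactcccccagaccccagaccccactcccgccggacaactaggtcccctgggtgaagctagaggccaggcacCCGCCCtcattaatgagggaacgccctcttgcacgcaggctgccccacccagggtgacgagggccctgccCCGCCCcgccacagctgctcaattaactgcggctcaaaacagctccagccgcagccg
C3ar1: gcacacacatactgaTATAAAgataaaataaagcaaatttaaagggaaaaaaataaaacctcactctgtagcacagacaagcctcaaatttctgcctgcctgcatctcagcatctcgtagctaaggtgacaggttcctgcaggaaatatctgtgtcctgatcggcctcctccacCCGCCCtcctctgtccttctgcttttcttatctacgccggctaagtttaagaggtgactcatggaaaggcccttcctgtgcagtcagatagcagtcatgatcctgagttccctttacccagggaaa

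The Cd55 window held 63.3% G and C and the C3ar1 window 46%, where the median over 32851 windows of the same length was 52.7%. GGGCGG occurred 2 times in the Cd55 window and 1 time in the C3ar1 window, and 35.7% of all windows held it. TATAAA occurred 1 time in the C3ar1 window, with 13.6% of all windows holding it. Neither window held CCAAT (37.4% of all windows), GAGGAA, the core that the myeloid factor PU.1 and other ETS factors bind (28.3%), or the STAT motif TTCNNNGAA (8.3%). The motifs did not overlap in either window. A match is a description of letters only.

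Among the components of the cascade, C2 encodes the protease precursor that joins C4 in the C3-cutting enzyme of the classical and lectin routes. Its signals were 1780, 391, 1705 and 704. Both replicate 1 arrays were high and Apex replicate 2 was lowest, and the groups overlapped. Its 2 other probe sets gave 1162, 186, 1184 and 501, and 1242, 215, 1231 and 538, with the same 2 arrays lowest. The log2 change, VEGFD minus Apex, was 0.38 ± 0.78 (SE of the limma fit, n = 2 and 2), with an adjusted p of 0.922. The 95% interval of that change ran from -1.59 to 2.35. Its sign turned to -0.69 without Apex replicate 2, and to -0.25 without VEGFD replicate 1.

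Cfb encodes factor B, the counterpart of C2 in the alternative route and, in the RefSeq gene order of GRCm38.p6, its direct protein-coding neighbour on chromosome 17. Cfb had signals of 213, 30.1, 266 and 185. Apex replicate 2 stood alone at a level near the filter, 7.08-fold below Apex replicate 1, and the other 3 arrays lay close together. The log2 change was 1.21 ± 0.76 with a limma adjusted p of 0.826, and it came to 0.058 when Apex replicate 2 was left out and to 2.37 when Apex replicate 1 was. A pseudocount of 64 lowered it to 0.83.

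Cfp encodes properdin, the plasma protein that stabilises the alternative-route enzyme and is made mainly by leukocytes. Its brighter probe set read 46.9, 47.8, 40.0 and 34.2. The VEGFD values were both lower without overlap, but by only 0.26 ± 0.26 on the log2 scale (adjusted p = 0.852 in limma). The dimmer probe set lay between 1.28 and 2.81 on all arrays. Cfp therefore gave little signal to compare, and its interval ran from -0.92 to 0.41.

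Among the inhibitors, Serping1 encodes C1 inhibitor, the plasma serpin that blocks the proteases C1r, C1s and the lectin-route MASPs. It had signals of 1331, 168, 3710 and 579. Within each group the first replicate was several times brighter than the second, by 7.92-fold in Apex and 6.41-fold in VEGFD, and the groups overlapped. The log2 change of 1.58 ± 1.21 had an adjusted p of 0.833 in limma and an interval from -1.46 to 4.62. With 1 array left out it was 0.14 (Apex replicate 2), 0.26 (VEGFD replicate 1), 3.02 (Apex replicate 1) or 2.90 (VEGFD replicate 2).

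Cd55 encodes decay-accelerating factor, a membrane protein that takes apart the C3-cutting enzymes on the cell's own surface. Its brightest probe set read 171, 201, 103 and 90.3. Both VEGFD arrays lay below both Apex arrays. The second probe set gave 81.2, 187, 58.6 and 65.8. The third gave 127, 138, 58.5 and 83.1, so all 3 probe sets had no overlap. The fitted log2 change was -0.84 ± 0.25, or 1.79-fold lower with VEGFD on the log2(signal + 16) scale, with an unadjusted p of 0.0176 and an adjusted p of 0.825 in limma. Its 95% interval, not adjusted for the number of genes, ran from -1.46 to -0.21. With 1 array left out it stayed between -0.94 and -0.73, and it was -0.71 with arrays centred on their medians, a scaling that raised the median change of all tested genes by 0.12. A pseudocount of 64 brought the Cd55 change to -0.63. Of all tested genes, 3.76% were lower in VEGFD at an unadjusted p under 0.05, and 1 of the 6 complement genes was. The neighbouring gene Cd55b is a duplicate of Cd55. Cd55b itself read at most 2.06 on its own probe set, and 1 further probe set named for both genes was not used.

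C3ar1 encodes the receptor for C3a, the small inflammatory fragment of C3, and is known best from myeloid cells. Its signals were 54.0, 54.1, 18.4 and 110. The 2 Apex arrays were nearly equal, while VEGFD replicate 2 was 6.0-fold above VEGFD replicate 1. The 2 other probe sets repeated this order of arrays, at 24.5, 34.8, 15.9 and 77.0, and at 26.2, 38.0, 17.9 and 74.6. The log2 change of -0.088 ± 0.63 (adjusted p = 0.980, limma) had an interval from -1.66 to 1.49, and its sign turned to 0.035 with arrays centred on their medians and to 0.13 with averaged probe sets. Leaving out VEGFD replicate 1 gave 0.85, and leaving out VEGFD replicate 2 gave -1.03. Csf1r, Adgre1, Cd68 and Lyz2, the macrophage markers read beside it, did not have this full order. Csf1r, the growth factor receptor of macrophages, read 503, 472, 335 and 558, with the same lowest and highest arrays as C3ar1. Adgre1, Cd68 and Lyz2 shared neither. Adgre1, which encodes F4/80, read 31.5, 16.1, 29.1 and 30.7, and Cd68, a lysosomal macrophage gene, read 49.4, 30.6, 58.0 and 41.2. Lyz2, the lysozyme gene of myeloid cells, read 75.3, 61.4, 91.9 and 39.8. Among genes below the filter, Ctss of the macrophage list shared the lowest and highest arrays of C3ar1, at most 11.8. Itgam, a gene of complement receptor 3, had its full order, at most 10.6. Other dim genes of the macrophage list differed. The part of these markers in the C3ar1 values was not tested.

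**Figure D2:**
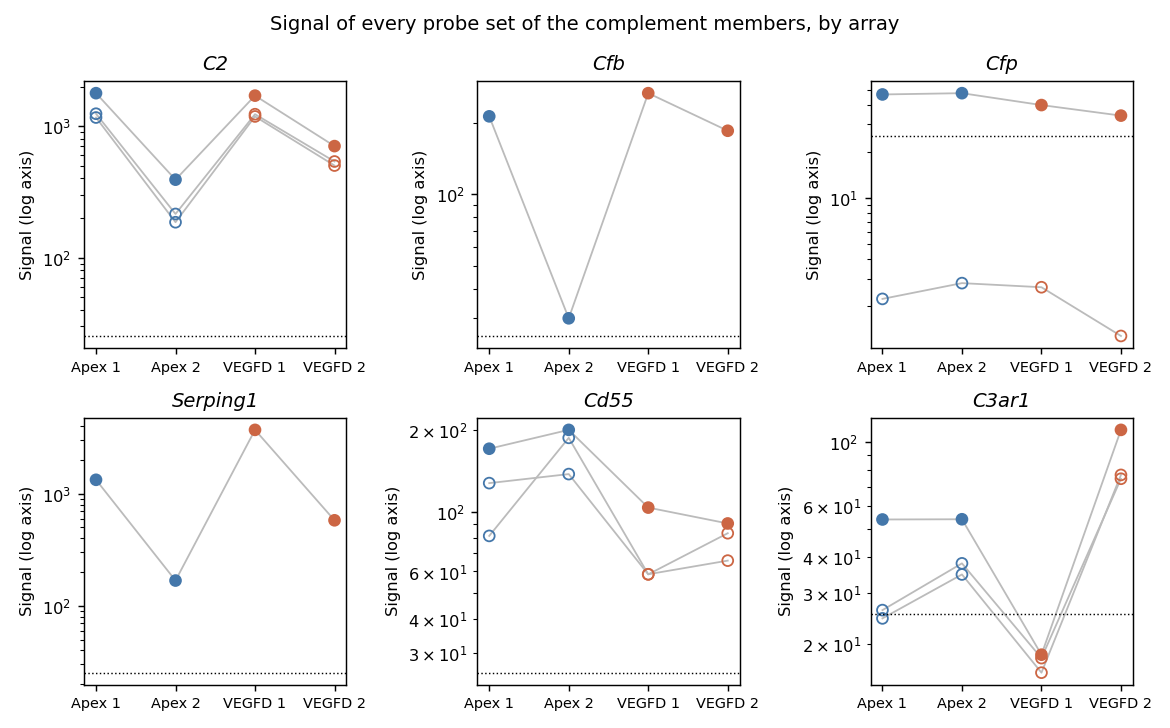
Linear signal on a log axis of all 13 probe sets of the 6 measured genes on the 4 arrays (filled points, the probe set that represents the gene; open points, the others; blue Apex, orange VEGFD; dotted line, the signal of the filter, 25.3). Cd55 is lower on both VEGFD arrays in every probe set, and C2, Cfb and Serping1 are lowest in Apex replicate 2.

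Seen as a set, 3 of the 6 genes were higher and 3 lower in VEGFD, with a median log2 change of 0.15 where that of all tested genes was -0.035. None of the 6 was at least 2-fold apart without overlap between groups, against 3.82% of all tested genes. This count depended on single arrays. It was 3 without Apex replicate 1 (Cfb, Serping1 and C2) and 3 without VEGFD replicate 2 (Cfb, Serping1 and C3ar1), where the number over all genes was 949 and 568 in place of 446. Both Cfp and Cd55, 2 of the 6, were lower in VEGFD without overlap, where 21.8% of all tested genes were.

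The larger differences lay between arrays of 1 group. C2, Cfb and Serping1 were at least 2-fold higher in Apex replicate 1 than in Apex replicate 2, which made 3 of 6 genes, against 2.65% of all tested genes. The same 3 genes were lowest of all in Apex replicate 2, where 24.8% of tested genes were, and this count was also 3 with arrays centred on their medians and after quantile normalization. These counts were made after the values were seen and carry no test. Apex replicate 2 was also the array with the highest pan-endothelial sum, 4150, against 688 in Apex replicate 1. Most of that sum came from Emcn, which read 2670 in Apex replicate 2 and 48.4 in Apex replicate 1. The adipocyte sums were 6357, 8052, 3808 and 3129. The fibroblast sums were 22267, 18931, 21994 and 21439, lowest in Apex replicate 2. Whether cell content contributed to the C2, Cfb and Serping1 values was not tested.

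Genes were sought with a pattern like that of Serping1, which held the highest single signal of the 6 genes (3710). Each tested gene was centred on its own mean and compared by the mean absolute log2 difference over the 4 arrays. The nearest of 11679 genes were Eya4 (0.34), a transcriptional coactivator gene, Qpct (0.38), which encodes glutaminyl cyclase, P2ry6 (0.46), a nucleotide receptor gene, Sdc2 (0.46), which encodes the heparan sulphate proteoglycan syndecan-2, and Zfp945 (0.46), a zinc finger gene. Eya4 had signals of 176, 39.9, 629 and 108, with the lowest and highest arrays the same as for Serping1. C2 ranked 24 (0.65) and Cfb 28 (0.68), while Cfp ranked 4695, Cd55 5983 and C3ar1 11310. The ranks describe these 4 arrays only.

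The rest of the cascade was taken from 4 lists of 43 genes in all, of which 36 had a single-gene probe set and 12 passed the filter. Of the 12, 5 were higher and 7 lower, 0 passed in limma, and the median log2 change was -0.26. Of the genes that start the cascade, 5 of 13 measured were tested. The subunit genes of C1q, which binds antibody, had little signal, with C1qa at most 3.80, C1qc at most 3.56 and C1qb at most 28.5. Masp1, which encodes a protease of the lectin route, was the 1 gene of the 12 that was at least 2-fold apart without overlap, where 3.82% of all tested genes were. Masp1 had signals of 570, 629, 305 and 88.7, with both VEGFD arrays below both Apex arrays. Its log2 change was -1.74 ± 0.54 with an unadjusted p of 0.0211 and an adjusted p of 0.825 in limma, and -1.13 with averaged probe sets. No overlap was found on 4 of its 5 probe sets. On the dimmest of these 4, Apex replicate 1 and VEGFD replicate 1 were nearly equal, both at 34.6 after rounding. Leaving out VEGFD replicate 1 gave -2.55 and a call (adjusted p = 0.00857) in a fit that holds no spread between VEGFD arrays, and leaving out VEGFD replicate 2 gave -0.94.

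C1ra and C1s1 encode the proteases of the C1 complex that Serping1's product blocks. C1ra read 313, 188, 277 and 22.3, and C1s1 read 184, 257, 383 and 7.46. Both were far lower in VEGFD replicate 2 than on the other 3 arrays. Their log2 changes were -1.29 ± 0.95 and -1.27 ± 1.28 (adjusted p = 0.830 and 0.847 in limma), and 0.18 and 0.77 without VEGFD replicate 2. With VEGFD replicate 1 left out they were -2.76 and -3.31 and were called (adjusted p = 0.0152 and 0.00874), again with no spread between VEGFD arrays. VEGFD replicate 2 was the lowest array for 7 of the 12 genes and for 2 of the 6 described above, against 35.5% of all tested genes. It also had the highest smooth muscle sum (4528, 5255, 7189 and 16999), and the part of that in these values was not tested.

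No gene of the late cascade was tested. The C5 gene Hc was at most 17.7, and 6 of the 8 late and factor D genes had a probe set. Of the 12 regulators on the lists, 6 were tested and none separated the groups, where 4489 of all 11680 tested genes did. Clu, which encodes the secreted inhibitor clusterin, had signals of 71.2, 657, 131 and 26.7, with Apex replicate 2 far above the rest. Its log2 change was -1.61 ± 1.08 (adjusted p = 0.826, limma) and -0.14 without Apex replicate 2. Cfi, which encodes the protease that cuts C3b and C4b, read 34.9, 34.9, 198 and 33.9. VEGFD replicate 1 alone stood apart, and the log2 change of 1.02 ± 0.69 (adjusted p = 0.826, limma) was -0.028 without it and 2.07 without VEGFD replicate 2.

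Like Cd55, Cr1l, Cd59a and Cd46 encode inhibitors held on the cell membrane. Cr1l, the rodent regulator Crry, read 621, 601, 855 and 615, with a log2 change of 0.24 ± 0.25 (adjusted p = 0.859, limma), or -0.056 with averaged probe sets. Cd59a, whose product blocks the pore, had signals of 647, 256, 376 and 918, with no separation of the groups. Its log2 change was 0.51 ± 0.59 (adjusted p = 0.866), -0.13 without Apex replicate 2 and -0.11 without VEGFD replicate 2. Cd46, the membrane cofactor protein gene, read 37.0, 58.0, 37.2 and 32.8, with overlapping groups and a log2 change of -0.30 ± 0.30 (adjusted p = 0.847, limma). Cd55 alone of these 4 genes had groups without overlap, where 4489 of all 11680 tested genes did. Its difference from the others was not tested. Among receptors, C5ar1, the receptor gene for C5a, was the 1 tested gene, at 26.8, 31.8, 26.3 and 19.8, with a log2 change of -0.22 ± 0.29 (adjusted p = 0.885, limma). Itgam and Itgb2, which encode the chains of complement receptor 3, were at most 10.6 and 43.6.

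**Figure D3:**
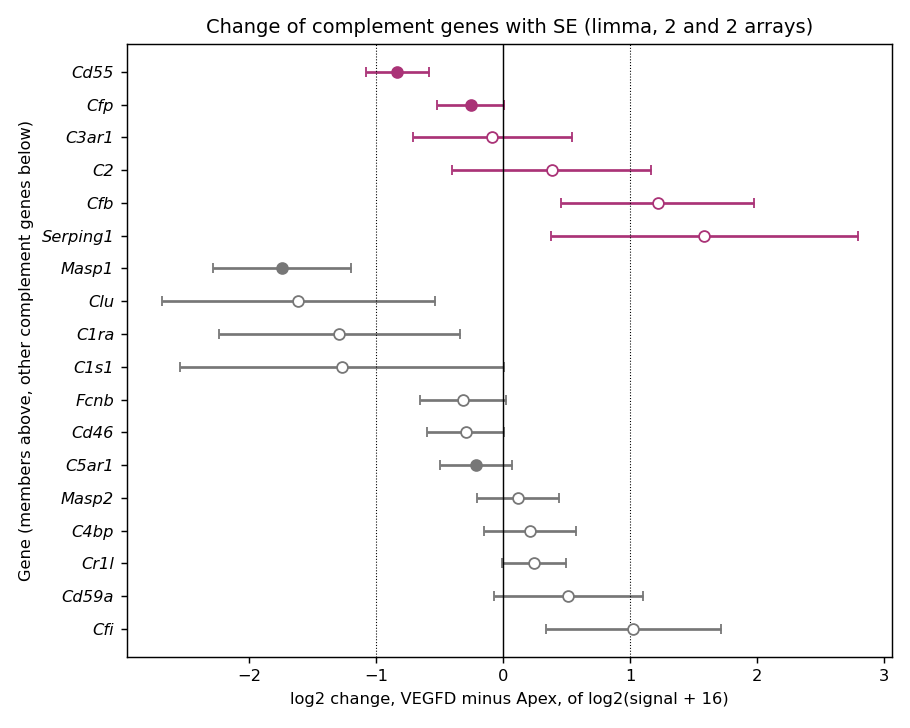
Log2 change (VEGFD minus Apex, points) with SE (bars) for the 6 genes (purple) and the 12 other tested complement genes (grey); filled points mark groups without overlap and dotted lines a 2-fold change. Cd55 lies at -0.84 with a short bar and Serping1 at 1.58 with an SE of 1.21, and Masp1 is the 1 filled point past 2-fold.

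**Figure D4:**
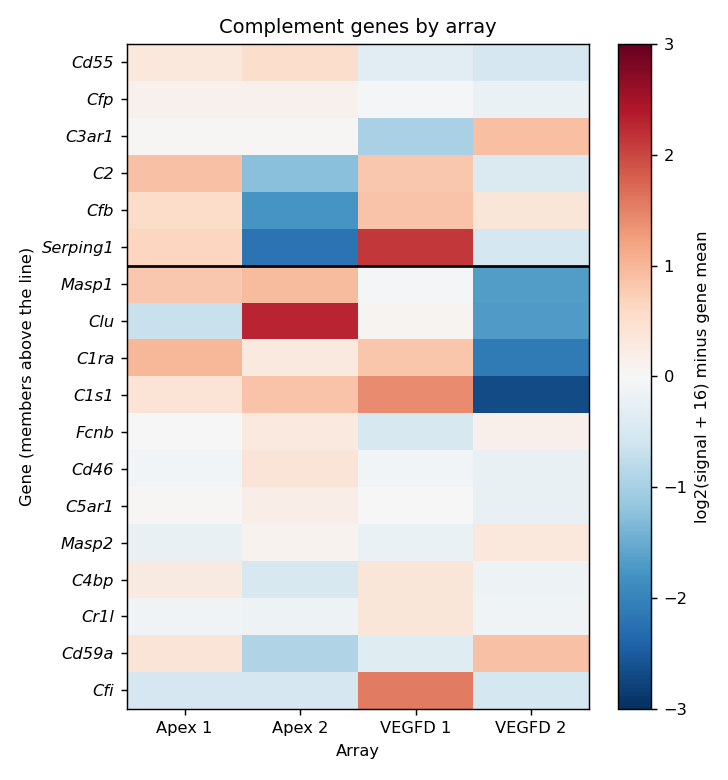
Each array's log2(signal + 16) minus the gene's mean over the 4 arrays (colour, red above and blue below the mean) for the 6 genes (above the line) and the 12 other tested complement genes. Serping1, Cfb and C2 are blue in Apex replicate 2, Clu is red there, and C1s1, C1ra, Clu and Masp1 are blue in VEGFD replicate 2.

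Genes of cytokines, receptors and transcription factors in pathways known to raise complement transcription were read beside these genes. Of 15 tested, 5 were higher and 10 lower in VEGFD and 0 passed in limma. Over all tested genes, 5413 were higher and 6267 lower. Without overlap, 1 of the 15 was higher (Il6) and 5 were lower (Ifngr1, Il1b, Il6ra, Tnfrsf1a and Tnfrsf1b). Of all 11680 tested genes, 1941 were higher and 2548 lower without overlap. Il6, the interleukin 6 gene, read 94.6, 54.9, 164 and 274, with both VEGFD arrays above both Apex arrays. The Il6 log2 change was 1.37 ± 0.37 (limma unadjusted p = 0.0123, adjusted p = 0.825). Tnfrsf1b, a receptor gene for tumour necrosis factor, read 117, 201, 56.5 and 71.9, with a log2 change of -1.09 ± 0.33 (adjusted p = 0.825), or -0.67 with averaged probe sets. Of 8 tested acute phase genes, 2 were higher and 6 lower and 0 passed. Hp, which encodes the haemoglobin carrier haptoglobin, read 34.2, 351, 2.21 and 12.7, and Cp, which encodes the copper protein ceruloplasmin, read 714, 1507, 545 and 69.6. The groups of Hp and Cp did not overlap, with log2 changes of -2.57 ± 0.93 and -2.27 ± 0.91 (adjusted p = 0.825 for both in limma). Saa3, a serum amyloid A gene, was higher without overlap but under 2-fold, at 40.0, 38.0, 77.4 and 80.1, with a log2 change of 0.79 ± 0.25 (adjusted p = 0.825, limma). Hp was -1.14 without Apex replicate 2 and -1.50 with a pseudocount of 64, and Cp was -0.91 without VEGFD replicate 2. Leaving out VEGFD replicate 1 gave Cp a value of -3.62, in a fit that holds no spread between VEGFD arrays. With averaged probe sets Cp was -1.595.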

How the data were processed

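The 4 deposited columns held linear intensity, 1 signal per probe set, and every array had a mean of 150.001 within rounding after trimming 2% of probe sets at each end. How the authors computed these intensity values from the scans was not stated in the labels, and no detection calls were used. Of 45101 probe sets, 34945 had 1 gene symbol, 932 several and 9160 none, and 64 were controls. Values were used as log2(signal + 16), so changes of dim genes are understated. The brightest probe set represented a gene, and genes were tested when its mean reached the median over the non-control probe sets. VEGFD and Apex arrays were compared over all 11680 tested genes with limma 3.58.1 in R 4.3.3 (intensity trend, two-sided, Benjamini-Hochberg, threshold 0.05), a procedure tested on simulated data. The number of arrays limits the precision.

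The members and lists were chosen with earlier results of these data known. Named were all members, complement genes 2-fold apart without overlap or else the 2 largest changes of a list, a fixed set of complement genes (1 of which is not reported here, and Cfd had no single-gene probe set), up to 6 separated inducer and acute phase genes each, 9 fixed cell markers, and 5 genes of like pattern. Likeness was to be measured against C3, and Serping1 replaced it after the values were seen. Genes named beyond this rule were also chosen after their values were seen. Among complement, acute phase and inducer genes these were Cd55b, the C1q genes, Itgam, Itgb2, Cd46, Saa3, Ifngr1, Il1b, Il6ra and Tnfrsf1a. Among cell markers they were Pdpn, Emcn, Flt4, Foxc2, Itga9, Reln, Lyve1, Mmrn1, S100a8 and Ctss. Promoter windows came from RefSeq, GRCm38.p6. The build behind the array is not given, so no probe set positions are printed, and the promoter coordinates and gene order are those of RefSeq. Alternatives covered scaling, filter, pseudocount, probe set averaging, variance trend, replicate block and each array left out.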

Additional observations from a re-analysis of the deposited data

How the results depend on the processing

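With 2 arrays a group, the number of arrays limits every value. The direction of C2 turned without Apex replicate 2 and also without VEGFD replicate 1. That of C3ar1 turned without VEGFD replicate 1. Cd55, Cfb, Cfp and Serping1 kept their direction in every alternative run in which they were tested. Cfp was not tested with averaged probe sets, and neither Cfp nor C3ar1 with the filter at the 75th percentile. Of 75 alternative values of the 6 genes, 69 kept their direction and stayed short of the threshold and 6 turned. C3ar1 turned to 0.035 with arrays centred on their medians, 0.13 with probe sets averaged and 0.022 at a pseudocount of 64, and with 1 array left out it ran from -1.03 to 0.85 (without VEGFD replicate 1). C2 turned to -0.69 without Apex replicate 2 and -0.25 without VEGFD replicate 1, in a range up to 1.45. Of the other genes, Cr1l turned to -0.056 with averaged probe sets, Cd59a to -0.13 and -0.11 without Apex replicate 2 and VEGFD replicate 2 (range up to 1.15), Cfi to -0.028 without VEGFD replicate 1 (up to 2.07), and C1ra and C1s1 to 0.18 and 0.77 without VEGFD replicate 2 (down to -2.76 and -3.31). The cause of these was not tested. Genes past the threshold numbered 0 on all 4 arrays, and from 0 to 390 with 1 array left out (390 without VEGFD replicate 1, 4 without VEGFD replicate 2). Genes 2-fold apart without overlap numbered 446 (124 higher, 322 lower), 424 with arrays centred on their medians (188 higher, 236 lower), 225 with the filter at the 75th percentile, where fewer genes were tested, 228 with a pseudocount of 64, and from 436 to 1329 with 1 array left out. The count of complement members 2-fold apart without overlap was 0, and from 0 to 3 with 1 array left out. With the replicate number as a block, 6 genes passed over all genes and 0 of the complement genes, with Serping1 at an adjusted p of 0.129 and Cd55 at 0.531. Same-numbered arrays deviated together with a correlation of 0.20 over 11680 genes, but the labels do not say that the numbers pair the arrays. The analysis with a lone array assumes that it varies like the other group.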
